A study of Mus musculus with 9 samples.

Results

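The Nr4a family comprises 3 nuclear receptor genes, Nr4a1 (Nur77), Nr4a2 (Nurr1) and Nr4a3 (Nor1), and all 3 were present by symbol among the 23951 genes of the deposited expression table. RNA sequencing measured them in cultured mast cells, derived from marrow of C57BL/6 wild-type animals, with 3 libraries in each of 3 groups. The untreated cells received neither IgE nor antigen. The IgE group received 0.5 µg/ml IgE directed against the hapten DNP for 18 h. The antigen group received the same IgE and then 50 ng/ml DNP coupled to albumin for 2 h, which cross-links the IgE bound to its receptor. Interleukin-3 and stem cell factor, each at 10 ng/ml, had been given to all cultures for 4 to 6 weeks, and over 95% of the cells carried the IgE receptor and CD117, per the labels. Whether replicates were separate mice or cultures is not stated in the labels, so every p-value measures only the spread between these libraries, which may be technical.

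Nr4a proteins are called orphan receptors because their ligand-binding pocket is closed and they act without a classical hormone. Their activity follows mainly from how much of the protein is made, and the genes are immediate early genes that antigen receptors, calcium and cAMP switch on within a short time. The proteins bind DNA as monomers at a site called NBRE, or as dimers, and Nr4a1 and Nr4a2 can also pair with the retinoid X receptors. In lymphocytes they are known as reporters of antigen receptor signalling and as restraints on activation.

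The promoters of the 3 genes are shown because they share a feature that the expression values did not use. In the 250 bases before the RefSeq start site (build GRCm38.p6) each promoter held the core of the cAMP response element (CRE), TGACG, 4 times over both strands. The capitals mark these cores, which read CGTCA where they lie on the other strand. CREs are bound by CREB and related factors.
Nr4a1, chr15:101266596-101266845, plus strand: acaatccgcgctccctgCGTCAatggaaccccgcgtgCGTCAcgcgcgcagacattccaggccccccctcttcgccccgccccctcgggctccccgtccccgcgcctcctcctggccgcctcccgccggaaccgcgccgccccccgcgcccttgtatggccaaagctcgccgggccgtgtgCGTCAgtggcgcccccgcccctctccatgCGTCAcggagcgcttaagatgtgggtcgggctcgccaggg
Nr4a2, chr2:57124004-57124253, minus strand: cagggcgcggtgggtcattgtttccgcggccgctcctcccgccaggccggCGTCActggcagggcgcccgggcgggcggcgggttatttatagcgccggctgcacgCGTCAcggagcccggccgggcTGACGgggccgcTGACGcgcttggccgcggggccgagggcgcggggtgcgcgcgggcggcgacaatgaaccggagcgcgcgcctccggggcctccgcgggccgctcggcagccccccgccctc
Longer annotated Nr4a3 transcripts begin inside its window, so for that gene only 3 stretches of 30 bases around the cores are given, all on the plus strand.
Nr4a3, chr4:48045069-48045098: gagggTGACGtagcgtcccatgtCGTCAca
Nr4a3, chr4:48045098-48045127: atTGACGtctcgcattccaggcactctatg
Nr4a3, chr4:48045143-48045172: ctcctgtggcataaaTGACGtgccgagaga

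At least 1 TGACG core was found in 17.8% of the 32851 promoter windows of the RefSeq table, and 4 or more cores in 45 windows (0.137%). The cores contain a CG pair and these promoters are rich in G and C, at 74.4% in Nr4a1, 80.0% in Nr4a2 and 63.6% in Nr4a3, against a median of 52.4% over all windows. Among the 6582 windows with at least 63.6% G and C, 25 (0.380%) held 4 or more cores. The arrangement differed between the genes: in Nr4a1 all 4 cores lay on the minus strand, the nearest 40 bases from the start, while in Nr4a2 they lay 111 to 200 bases and in Nr4a3 147 to 231 bases upstream. The full element TGACGTCA, the NBRE site AAAGGTCA and the CArG box of serum response factor were absent from all 3 windows. They occurred in 1.55%, 1.34% and 1.47% of all windows. The CArG box was searched only as CCWWWWWWGG, W being A or T, and sites that depart from this pattern were not counted. A MEF2 site was found in the Nr4a2 window alone of the 3, 167 bases upstream, and in 2.92% of all windows. Both strands were searched, and a match is a description of the letters, not of a bound factor.

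**Figure D1:**
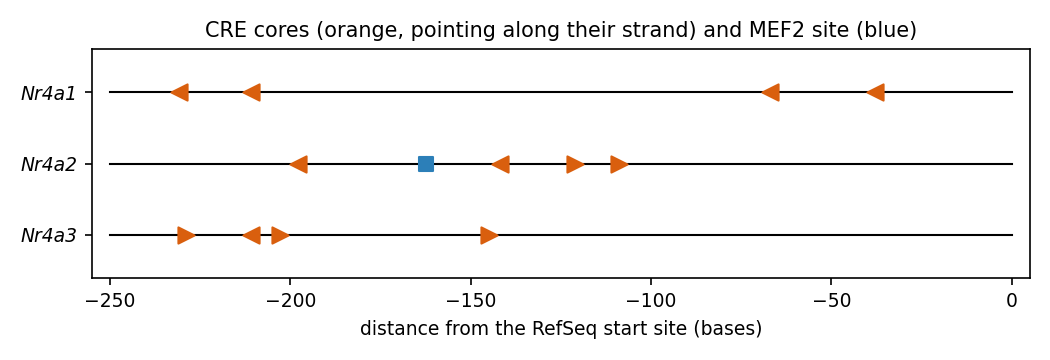
Position of the CRE cores (orange triangles, pointing along the strand) and of the MEF2 site (blue square) in the 250 bases before the RefSeq start site of each Nr4a gene, in bases from the start. Each gene has 4 cores, which reach closest to the start, at 40 bases, in Nr4a1.

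Sequencing depth, read off the spacing of low FPKM values, came to 29.8 to 33.3 M reads in the untreated, 32.2 to 39.3 M in the IgE and 20.9 to 28.5 M in the antigen libraries, so the antigen group was the shallowest. Of 11 mast cell markers, 9 were at 1 FPKM (fragments per kilobase of transcript per M mapped) or more in every library, with Tpsb2, a tryptase, at 6256 ± 205 FPKM and Fcer1a, the alpha chain of the IgE receptor, at 5639 ± 621 FPKM in the IgE group (SD, n = 3). The defining proteases Cpa3 and Cma1 were listed at 0 in all 9 libraries. Neutrophil, T and NK cell and B cell markers summed to at most 2.29, 1.17 and 0.272 FPKM in any library. Basophil markers, several of which mast cells share, summed to 424 to 478 FPKM with IgE. Their sums were 508 to 546 FPKM in untreated and 554 to 574 FPKM in antigen libraries. From IgE to antigen Cd200r3 rose from 344 ± 23.4 to 492 ± 10.5 FPKM, while Prss34 fell from 92.1 ± 3.05 to 54.7 ± 0.597 FPKM. Platelet and megakaryocyte markers summed to 375 to 457 FPKM over the 9 libraries. Most of that was Itga2b, at 363 ± 6.91 FPKM in the IgE group. Gp1ba was at 14.9 ± 2.79, Gp9 at 4.52 ± 0.0848, Pf4 at 0.0757 ± 0.0660 and Ppbp at 0 FPKM there. Macrophage markers summed to 76.9 to 99.0 FPKM over the 9 libraries, with members that moved both ways from IgE to antigen. Cd68 rose from 16.1 ± 0.245 to 30.2 ± 0.478 FPKM and Cd14 from 0.714 ± 0.0632 to 3.45 ± 0.413 FPKM. Lyz2 fell from 53.8 ± 3.19 to 37.5 ± 0.263 FPKM and Emr1 from 9.36 ± 0.280 to 7.75 ± 0.0620 FPKM. Dendritic cell markers summed to 0.345 to 0.659 FPKM in the untreated and IgE libraries and 2.77 to 3.07 FPKM with antigen. A part of other cells in the Nr4a values was not tested, and in bulk RNA more cells expressing a gene and more RNA per cell cannot be told apart.

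With antigen all 3 Nr4a genes were higher than with IgE alone, by very different amounts. Nr4a3 went from near 0 to the highest FPKM of the family, Nr4a1 rose 11.2-fold and Nr4a2, the only member above 1 FPKM before antigen, rose 1.79-fold. In FPKM Nr4a2 was the highest of the family before antigen and Nr4a3 after it, an order that depends on the transcript lengths the authors used. IgE alone was not followed by a change that passed the test in any of them.

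Nr4a3, the member first described as neuron-derived orphan receptor, was at 0, 0.0539 and 0.0480 FPKM in the untreated libraries, at 0.0464, 0 and 0.0166 FPKM in the IgE libraries, and at 22.8, 23.5 and 22.8 FPKM in the antigen libraries. The antigen libraries were far above the other 6 and differed little among themselves, while the untreated and IgE libraries overlapped. The low values could be read as whole reads: after scaling by depth they stood at 3, 3, 3 and 1 times the smallest of them, each within 0.0420 of a whole number. If the smallest value is 1 read, Nr4a3 had 6 reads over the untreated and 4 over the IgE libraries, and 1051, 916 and 1214 reads in the antigen libraries. Relative to depth this is a ratio of 1135 for antigen over IgE (exact 95% interval 443 to 4168) and of 681 for antigen over untreated (313 to 1858). These intervals cover counting error only, and reads are not independent molecules. A value of 1 read there implies a transcript of 1.87 kilobases, while the longest Nr4a3 transcript in GENCODE M21 has 5720 bases, so the smallest value may stand for more than 1 read. The ratios would then stay the same and the intervals would be narrower. On the log2(FPKM + 1) scale the change against IgE was 4.56 (SE 0.0433, limma adjusted p = 9.32e-11, n = 3 per group), the 10th highest of 10890 genes tested. The added 1 holds the fold of so low a gene down: with 0.1 in its place the log2 value became 7.60 (adjusted p = 2.25e-08; all alternatives lay from 4.53e-11 to 1.23e-07).

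Nr4a1, the receptor known as Nur77, was at 0.415, 0.443 and 0.298 FPKM in untreated, 0.242, 0.393 and 0.447 FPKM in IgE and 3.76, 4.14 and 4.21 FPKM in antigen libraries. The lowest antigen library was above every other library, and the untreated and IgE libraries overlapped. Its log2 change against IgE was 1.89 (SE 0.0742, limma adjusted p = 1.03e-07, n = 3 per group), and 228th highest of the genes tested. With 0.1 added in place of 1 it became 3.19 (adjusted p = 2.11e-06; all alternatives lay from 7.96e-08 to 5.82e-06). Between replicates Nr4a1 varied most where it was low, with a coefficient of variation of 19.9% in untreated, 29.5% in IgE and 5.94% in antigen libraries. Its depth there was 8.25 to 15.4 reads per kilobase of transcript, against 86.3 to 119.9 with antigen.

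Nr4a2, the receptor best known for its part in dopamine neurons, was at 1.84, 1.75 and 1.89 FPKM in untreated, 1.89, 1.86 and 2.27 FPKM in IgE and 3.60, 3.27 and 3.94 FPKM in antigen libraries. IgE replicate 3 was the highest of the 6 libraries without antigen and still below the lowest antigen library. The log2 change against IgE was 0.61 (SE 0.0722, limma adjusted p = 8.48e-05, n = 3 per group), the 1485th highest. Without a single library it lay between 0.56 and 0.67.

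**Figure D2:**
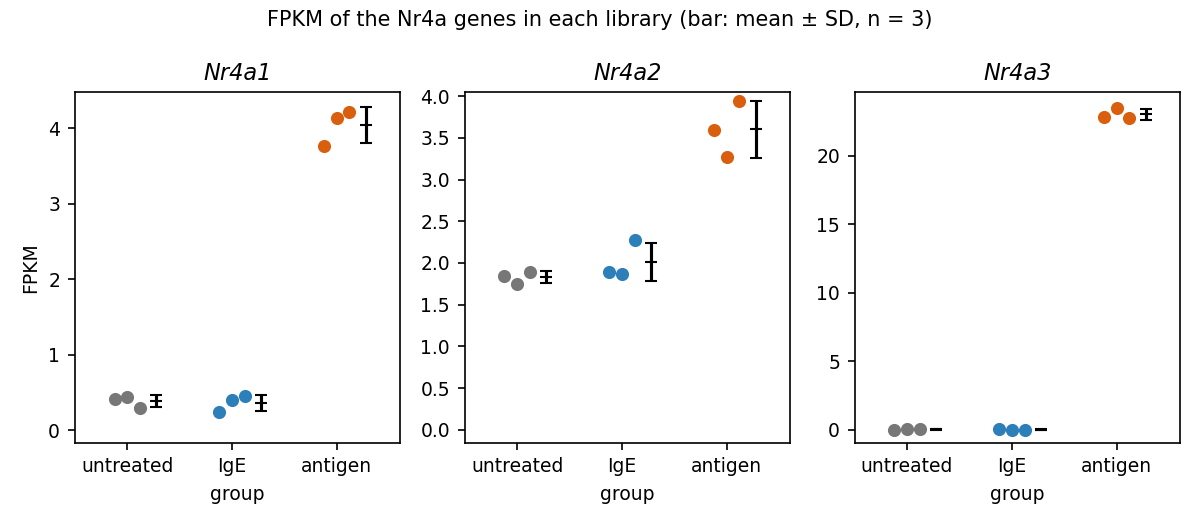
FPKM of Nr4a1, Nr4a2 and Nr4a3 (one panel each, linear axes of different range) in untreated, IgE and antigen libraries, with 1 point per library and the mean ± SD of 3 libraries beside them. All antigen points lie above all others in each panel, with Nr4a3 at 22.8 to 23.5 FPKM.

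All 3 members were called higher in antigen versus IgE, a comparison in which 71.1% of all genes tested were called, 36.2% higher and 34.9% lower. All 3 had groups that did not overlap, against 37.1% of genes tested that were higher without overlap. A rise of at least 1 on the log2 scale, reached by Nr4a1 and Nr4a3, was called in 7.34% of genes. Nr4a1 and Nr4a3 entered the test only through their antigen libraries, since genes needed 1 FPKM in 3 libraries, so their being different was built into that filter. With no filter on low values their adjusted p-values were 2.56e-07 and 6.04e-10.

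Antigen versus untreated uses the same antigen libraries and so repeats part of that comparison. There the log2 changes were 1.86 for Nr4a1 (SE 0.0742, limma adjusted p = 1e-07), 0.70 for Nr4a2 (SE 0.0722, adjusted p = 3.53e-05) and 4.54 for Nr4a3 (SE 0.0433, adjusted p = 1.35e-10). In this comparison 71.7% of the genes tested were called, 37.2% higher and 34.4% lower, and 7.41% higher by at least 1 on the log2 scale. All 3 members were again higher without overlap, as were 40.2% of genes. Nr4a1 was 10.5-fold and Nr4a2 1.97-fold above the untreated level.

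Between IgE and untreated cells no member was called and all 3 had overlapping groups, where 27.5% of all genes tested were called (14.5% higher, 13.1% lower) and 43.2% did not overlap. The log2 changes were -0.03 for Nr4a1 (95% interval -0.20 to 0.14, limma adjusted p = 0.83), 0.09 for Nr4a2 (-0.08 to 0.25, adjusted p = 0.414) and -0.02 for Nr4a3 (-0.12 to 0.08, adjusted p = 0.805). Unadjusted p-values were 0.721, 0.262 and 0.687, so 0 of the 3 passed at 0.05 before adjustment as well. For Nr4a1 and Nr4a3 the interval is on a scale that compresses changes under 1 FPKM. Of 20 other immediate early genes 3 rose and 3 fell in this comparison (3 calls in all without untreated replicate 3), the largest change being that of Egr1, from 0.266 ± 0.1001 to 3.305 ± 0.399 FPKM (SD, n = 3, log2 change 1.76, adjusted p = 4.38e-05).

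FPKM is per length, but the transcript lengths behind it are not known here, so the order and the shares of the 3 genes within a library hold for the deposited values and would change with other lengths. Without antigen the order in FPKM was Nr4a2, Nr4a1, Nr4a3 in each of the 6 libraries, with no overlap between genes. Nr4a2 made up 81.3% ± 3.33 of the summed Nr4a FPKM in untreated and 84.1% ± 2.30 in IgE libraries, and 11.7% ± 1.10 in antigen libraries (SD, n = 3). The share of Nr4a3 was 1.51% ± 1.32, 0.911% ± 1.09 and 75.1% ± 1.28 in the same order of groups, and that of the IgE group was 0.304% without IgE replicate 1. Both shares were free of overlap between antigen and either other group (two-sided exact permutation p = 0.1 each, the smallest that 3 against 3 libraries allow, adjusted p = 0.225 over 9 tests). The share of Nr4a1 moved least, at 17.1% ± 3.37, 15.0% ± 3.39 and 13.2% ± 0.615, with overlapping groups (exact permutation p = 0.4 for antigen versus IgE, adjusted p = 0.514).

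The summed FPKM of the 3 genes was 2.25 ± 0.00931 in untreated, 2.39 ± 0.3002 in IgE and 30.7 ± 0.400 in antigen libraries (SD, n = 3). The untreated sums ranged from 2.24 to 2.26 FPKM, a narrower spread than that of Nr4a1 or Nr4a2 alone. Of the increase in the sum from IgE to antigen, Nr4a3 gave 81.4%, Nr4a1 13.0% and Nr4a2 5.64%. After antigen Nr4a1 and Nr4a2 stood at neighbouring levels, 4.04 ± 0.240 and 3.60 ± 0.338 FPKM, and their ranges over the 3 libraries overlapped, although Nr4a1 was the higher in each.

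**Figure D3:**
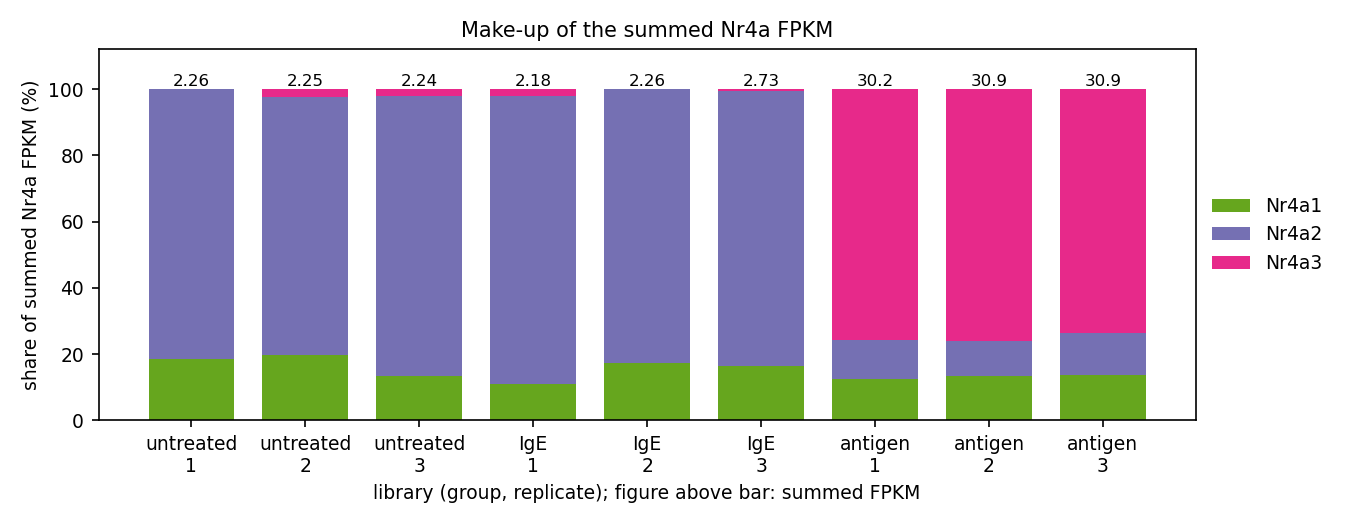
Share of each Nr4a gene in the summed Nr4a FPKM (%) for each of the 9 libraries, with the summed FPKM above each bar. Nr4a2 fills most of the bar in the untreated and IgE libraries and Nr4a3 fills 73.6% to 76.0% in the antigen libraries.

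Among the other nuclear receptors of the mouse, 18 of 46 in the table were tested, and 6 rose and 5 fell with antigen versus IgE, shares near the 36.2% higher and 34.9% lower of all genes tested. Beside them Nr4a3 and Nr4a1 had the highest log2 changes, and that of Nr4a1 exceeded that of Rara by less than 2 of its SEs. This closeness belongs to the scale with 1 added, since the ratio of mean FPKM was 11.2 for Nr4a1 and 3.81 for Rara. Among receptors under the filter, which were not tested, Vdr went from 0.0804 ± 0.0260 to 0.837 ± 0.0678 FPKM, a ratio of 10.4. The ratios of other untested receptors lay on both sides of 1. Rara, a retinoic acid receptor, rose from 5.26 ± 0.941 to 20.04 ± 0.293 FPKM (log2 change 1.76, adjusted p = 5.66e-07), and Nr2f6, an orphan receptor, from 9.24 ± 0.804 to 19.1 ± 1.91 FPKM (0.97). Rxra, a retinoid X receptor that can dimerize with Nr4a1 and Nr4a2, fell from 5.27 ± 0.153 to 1.73 ± 0.167 FPKM (log2 change -1.20, adjusted p = 2.68e-07), and Pgr, the progesterone receptor, fell from 21.7 ± 1.94 to 13.0 ± 0.271 FPKM. Rxra was also lower in IgE than in untreated cells, which had 7.05 ± 0.326 FPKM (adjusted p = 0.00288). In that comparison 6 receptors fell and 0 rose, against 13.1% lower and 14.5% higher of all genes tested. The number that fell was 10 without IgE replicate 3 and 4 without untreated replicate 1, IgE replicate 1 or IgE replicate 2. Relative to untreated cells antigen left 4 higher and 10 lower, against 37.2% higher and 34.4% lower of all genes.

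**Figure D4:**
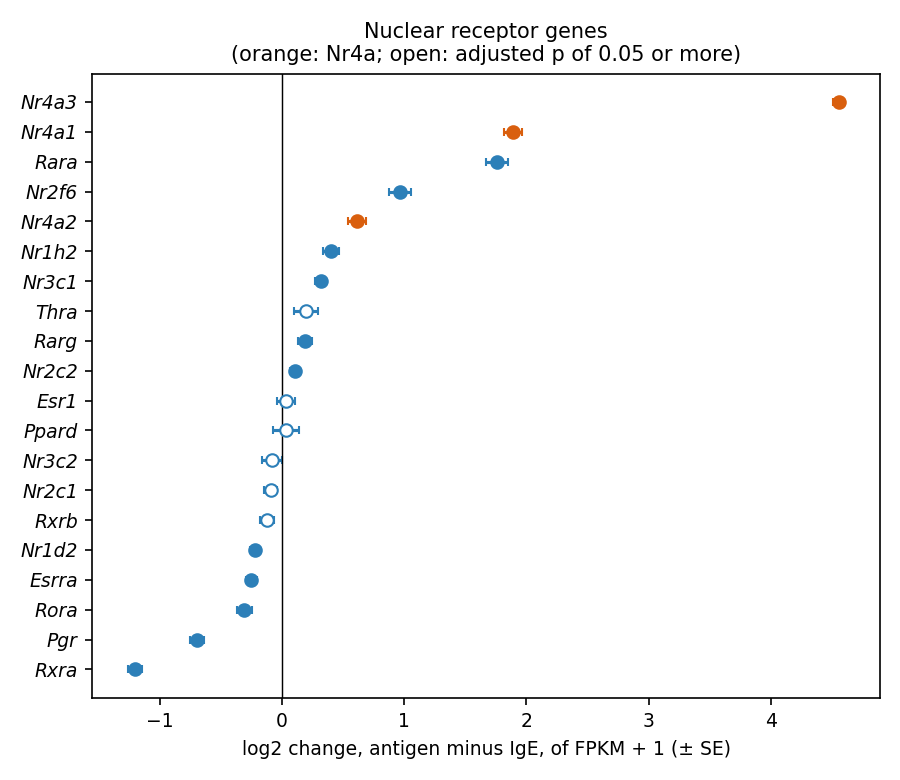
Log2 change of FPKM + 1, antigen minus IgE, with its SE for the tested autosomal nuclear receptor genes, Nr4a in orange and others in blue, with open points for an adjusted p of 0.05 or more. Nr4a3 at 4.56 and Nr4a1 at 1.89 are at the top, and Nr4a2 at 0.61 comes after Rara and Nr2f6.

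Of 20 partners and coregulators 19 were found and 17 tested, and 8 rose and 4 fell with antigen versus IgE (median log2 change 0.14), against 36.2% higher and 34.9% lower of all genes. After quantile normalization 7 rose and 7 fell (median 0.03). Kdm1a, the histone demethylase of the CoREST complex, rose from 18.9 ± 0.308 to 53.9 ± 1.70 FPKM (adjusted p = 5.59e-09). Trim28, a corepressor, fell from 54.9 ± 1.29 to 41.1 ± 0.447 FPKM, and Prkdc, the catalytic subunit of a DNA repair kinase, from 7.21 ± 0.329 to 4.10 ± 0.0776 FPKM. In the IgE versus untreated comparison 2 of these genes rose and 3 fell, where 27.5% of all genes were called (14.5% higher, 13.1% lower). The 5 calls became 9 without IgE replicate 3 and 3 without untreated replicate 1 or IgE replicate 2.

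Of the 37 genes through which calcium, cAMP and MAP kinase signals reach the Nr4a promoters, 31 were tested. With antigen versus IgE 15 rose and 7 fell (median log2 change 0.21), against 36.2% higher and 34.9% lower of all genes. The share called in either direction was near the 71.1% of all genes. After quantile normalization 14 rose and 10 fell. Camk2g, a calcium/calmodulin kinase, rose from 23.0 ± 0.163 to 51.3 ± 0.761 FPKM (adjusted p = 9.89e-09). Crem, a CRE-binding factor with activating and repressing forms, rose from 4.94 ± 0.141 to 17.2 ± 0.753 FPKM (adjusted p = 4.53e-08). Mef2a, a MEF2 factor, rose from 10.5 ± 0.356 to 16.4 ± 0.240 FPKM, and Prkd3, a protein kinase D, from 7.12 ± 0.397 to 12.1 ± 0.397 FPKM. Creb1 itself fell from 15.1 ± 0.608 to 12.7 ± 0.556 FPKM (adjusted p = 0.00121), and Nfatc1, a calcineurin target, rose from 13.9 ± 3.54 to 58.8 ± 2.42 FPKM (adjusted p = 3.65e-06). These last 2 were chosen after their values were seen. In IgE versus untreated cells 3 of the 31 fell and 0 rose, against 13.1% lower and 14.5% higher of all genes. The number that fell was 11 without IgE replicate 3. It was 1 without any 1 of the other IgE libraries, the 3 untreated libraries or antigen replicates 1 and 2. The X-linked Rps6ka3, an ERK-activated kinase, was listed at 0 in antigen replicate 3 and at 39.5 and 45.7 FPKM in the other antigen libraries, against 20.5 to 22.5 FPKM with IgE. X-linked genes are not drawn in the plots of receptors and of gene lists.

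Genes described elsewhere as Nr4a targets, in other tissues for the most part, were tested in 12 of 28 cases, and 7 rose and 3 fell with antigen versus IgE (median log2 change 0.78), against 36.2% higher and 34.9% lower of all genes. Nfkbia, an inhibitor of NF-kB, rose from 13.4 ± 0.483 to 96.5 ± 2.07 FPKM (adjusted p = 5.99e-10). Havcr2, which encodes the inhibitory receptor TIM-3, rose from 60.8 ± 3.36 to 497 ± 8.49 FPKM (adjusted p = 6.18e-10). Slc18a2, the vesicular amine transporter, rose from 369 ± 9.67 to 689 ± 37.3 FPKM. The dopamine neuron genes Th and Slc6a3 and the T cell genes Pdcd1 and Tox2 were listed at 0 in all 9 libraries. Between IgE and untreated cells, where no Nr4a gene was called, 4 of the 12 rose and 5 fell, against 14.5% higher and 13.1% lower of all genes. Among them Ddc, an amine-synthesis enzyme, rose from 11.7 ± 0.497 to 16.4 ± 1.02 FPKM and Cdkn1b, a cell cycle inhibitor, fell from 51.7 ± 2.33 to 37.6 ± 2.00 FPKM. Of the 91 tested genes with an NBRE site in the promoter window, 39 rose and 30 fell with antigen versus IgE. In that comparison 36.2% of all genes were higher and 34.9% lower. The median log2 change of the NBRE genes was -0.04, close to the -0.01 of all genes. A further set, chosen after seeing the promoters, was the 31 other tested genes with 4 or more CRE cores in a promoter window. Of these 11 rose and 7 fell with antigen versus IgE, against 36.2% higher and 34.9% lower of all genes. The share that rose was near that of all genes and the share that fell was below it. Their median log2 change was 0.11, against -0.01 for all genes.

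Other immediate early transcription factors were mostly higher with antigen versus IgE. Of 20 tested, 18 were called higher and 1 lower (median log2 change 1.71), against 36.2% higher and 34.9% lower of all genes. Egr2 rose from 0.144 ± 0.0266 to 52.0 ± 1.83 FPKM, Fosb from 0.111 ± 0.0360 to 11.7 ± 0.0614, Atf3 from 0.130 ± 0.0240 to 7.11 ± 0.106 and Klf10 from 15.5 ± 0.384 to 74.3 ± 2.00 FPKM. The log2 change of Nr4a3 was within the range of these genes and that of Nr4a2 was below their median. Of the named genes, Egr2, Fosb and Atf3 passed the filter only through their antigen libraries, so their being different was built into it.

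**Figure D5:**
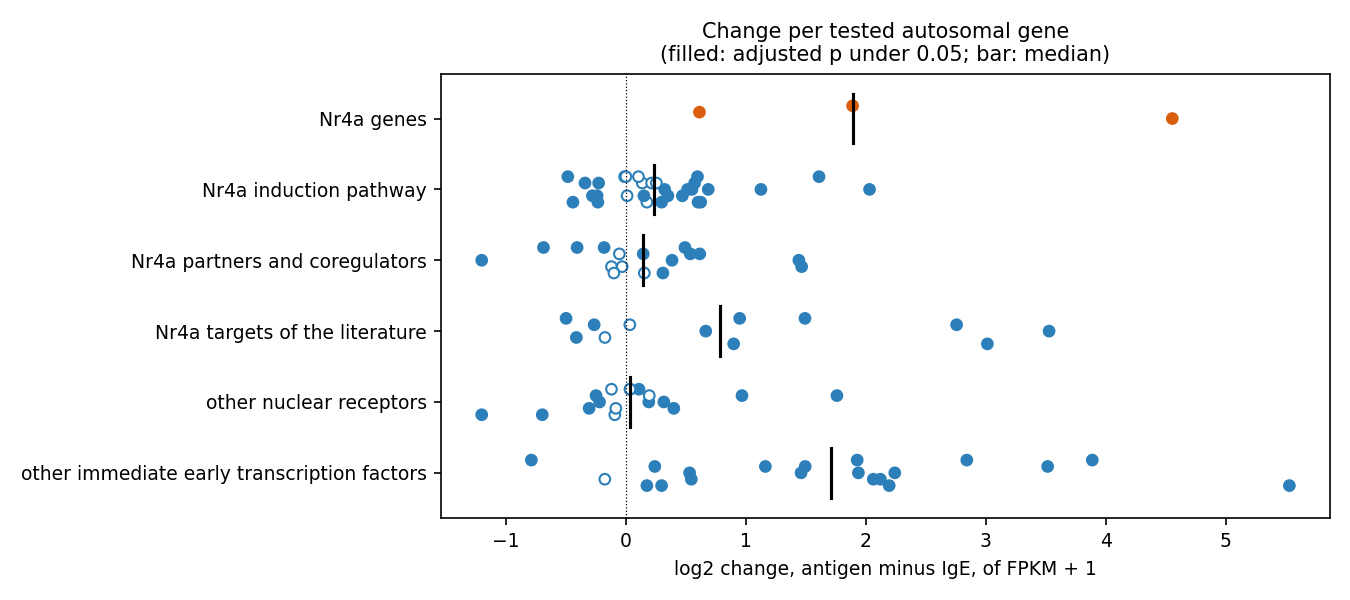
Log2 change of FPKM + 1, antigen minus IgE, of each tested autosomal gene in the Nr4a family and in 5 gene lists, with filled points for an adjusted p under 0.05 and a bar at the list's median. The immediate early list lies mostly to the right of 0, and the coregulator and nuclear receptor lists lie on both sides of it.

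The genes with the most similar profiles were taken as those with the smallest root mean square difference in log2(FPKM + 1) over the 9 libraries, each profile centred on its own mean. For Nr4a3 they were Tnfrsf12a, the TWEAK receptor, Nfkbid, an IkB protein, Hdc, which makes histamine, Dusp5, an ERK phosphatase, and Tnfrsf9, the receptor 4-1BB, at differences of 0.13 to 0.24. For Nr4a1 they were Ercc6, Vldlr, Rhbdf1, Rbpj and Trp53i11, at 0.06 to 0.08, and those of Nr4a2 included Map4, Larp4b, Bend3 and Gatad2a, at 0.05 to 0.06. These neighbours depend on the measure: with 0.1 added in place of 1, and also by Pearson correlation, none of the 5 stayed for Nr4a3 or Nr4a1. Of the 4 named for Nr4a2, only Gatad2a was again among the nearest 5 by Pearson correlation, and none was with 0.1 added. A correlation over 0.99 with Nr4a3 was found for 616 genes, with Nr4a1 for 490 and with Nr4a2 for 5, over libraries that share the step between antigen and the other groups.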

How the data were processed

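The deposited table gives FPKM for 9 libraries, computed by the authors, and no read counts. The submitters' processing notes name TopHat2 2.0.12, Bowtie 0.12.7 and build mm9. Which program and annotation gave FPKM, and whether strand was used, is not given in the sources used here. GENCODE M21 lists no gene overlapping the Nr4a genes, and transcripts of 1 gene are not separated.

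The 10890 genes that reached 1 FPKM in 3 or more of the 9 libraries entered limma 3.58.1 (R 4.3.3), fitted to log2(FPKM + 1) with a trended prior, all 9 libraries and no covariate. Tests were two-sided, with Benjamini-Hochberg adjustment over all genes tested and calls at adjusted p under 0.05. Plain folds are ratios of group means. Depth was estimated from the steps of low values in 2966 genes with 1 transcript in GENCODE M21. Both methods were tested on simulated data. Shares were compared with exact permutation tests in SciPy 1.17.1.

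By their deviations from the group means, same-numbered untreated and IgE libraries had r = 0.16, 0.40 and 0.12. Different-numbered ones ranged from -0.36 to 0.26, the highest being untreated replicate 1 with IgE replicate 3. Same-numbered antigen libraries had r from -0.18 to 0.07 with either group. Pairing by number was therefore not established, and a replicate block was tried as an alternative. Promoters are RefSeq windows of GRCm38.p6, matched by symbol for 3 of 3 genes. Members and lists were chosen with earlier results of these data known. Named list genes are up to 4 called members with the smallest adjusted p, unless stated. A few genes that these rules would name are not reported here, and the counts include them.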

Additional observations from a re-analysis of the deposited data

How the results depend on the processing

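The calls of all 3 Nr4a genes in antigen versus IgE and in antigen versus untreated held under each of the 20 alternatives run, which covered pseudocount, filter, scaling, prior, libraries in the fit, a stricter threshold and each library left out. With the replicate block the changes against IgE were 1.89, 0.61 and 4.56 for Nr4a1, Nr4a2 and Nr4a3, no call of a member changed, and 2500 genes were called in IgE versus untreated. In IgE versus untreated, where no member was called in any alternative, quantile normalization gave 0.00842 for Nr4a1 and 0.000423 for Nr4a3, and the change of Nr4a1 ranged from -0.0734 to 0.0369 with 1 library left out, turning positive without untreated replicate 2 (0.00273) and without IgE replicate 1. The cause was not tested. The number of genes called in IgE versus untreated, 2999, was 1396 at an adjusted p under 0.01 and 1914 to 3887 with 1 library left out, 1914 being without untreated replicate 1. After quantile normalization the antigen shares of Nr4a1 and Nr4a3 were 14.2% and 73.0%. Of 360 recomputed list counts 337 stayed within 1.5 times, and the other 23 did not. Nr4a3 was near 0 FPKM before antigen, and 2 of 6 libraries list it at 0. IgE replicate 2, the deepest library at 39.3 M reads, is among them, and a part of depth was not tested. The share of Nr4a3 ranged from 0.304% to 1.97% in the IgE group and from 1.07% to 2.27% in the untreated group over the alternatives.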
